A study of Mus musculus with 12 samples.

Results

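Type I interferon-stimulated genes are the antiviral and signalling genes that cells switch on after interferon alpha or beta binds its receptor. A list of 35 such genes was followed in mouse vessels over a week of angiotensin II infusion. The members were found by gene symbol: 34 of the 35 were measured among 30702 genes, each by 1 transcript cluster, the array's unit for the exons of a gene. Ifi44 is not analysed here. Of the 34 measured, 32 passed a filter on dim signals and were tested among 22066 genes, while Oas3 and Oasl1 were too dim. Mx1 reached that filter only with the help of the day 7 arrays. The animals were male C57BL/6 mice, 8 to 10 weeks old. The day 0 group had no treatment, and the others carried an osmotic pump that delivered angiotensin II, a vasoconstrictor hormone that raises blood pressure, at 1500 ng per kg per min for 1, 3 or 7 days. Each group had 3 arrays described as biological replicates. The sources used here name no vehicle pump group, so surgery and angiotensin II cannot be told apart, and they do not give which vessel was taken or whether animals were pooled. Values are log2 signals, on which a difference of 1 is a doubling.

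Type I interferons bind the receptor pair IFNAR1 and IFNAR2, whose kinases JAK1 and TYK2 phosphorylate transcription factors of the STAT family. STAT2 and IRF9 are subunits of the resulting complex, ISGF3, which binds the interferon-stimulated response element in the promoters of its target genes. The targets include sensors of viral RNA and DNA, enzymes that degrade or block viral RNA, and the factors STAT2, IRF9 and IRF7, which extend the response. Interferon itself is made when nucleic acid sensors or Toll-like receptors are engaged, and macrophages and plasmacytoid dendritic cells are among its sources.

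At day 7, 29 of the 32 genes tested were higher than at day 0, and none fell. In limma, 12.1% of all 22066 genes rose and 13.2% fell in that comparison (Benjamini-Hochberg adjusted p under 0.05). The largest rise was that of Oas2, which makes the activator of the antiviral RNase L, by 3.95 ± 0.72 log2 units. Here ± is the standard error that limma gives, as for each difference that follows (n = 3 arrays per group). It rests on 1 spread per gene over all days. The median SD of the 32 genes was 0.94 at day 7 and 0.13 to 0.14 before. The error, and with it the adjusted p, can therefore be too low for a day 7 difference. Trim30a, a regulator of innate signalling, and Ifit1, which binds foreign RNA, rose by 2.59 ± 0.45 and 2.59 ± 0.69. The median difference of the 32 genes was 1.65, against 0.09 over all genes tested. The rise was uneven among the day 7 arrays: replicates 2 and 3 both lay above replicate 1 for all 32 genes, while 36.3% of all genes tested had that order. At day 1, 0 of the 32 passed the test against day 0, where 1.99% of all genes rose and 1.63% fell. At day 3, 0 passed, where 4.61% rose and 7.14% fell.

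**Figure D1:**
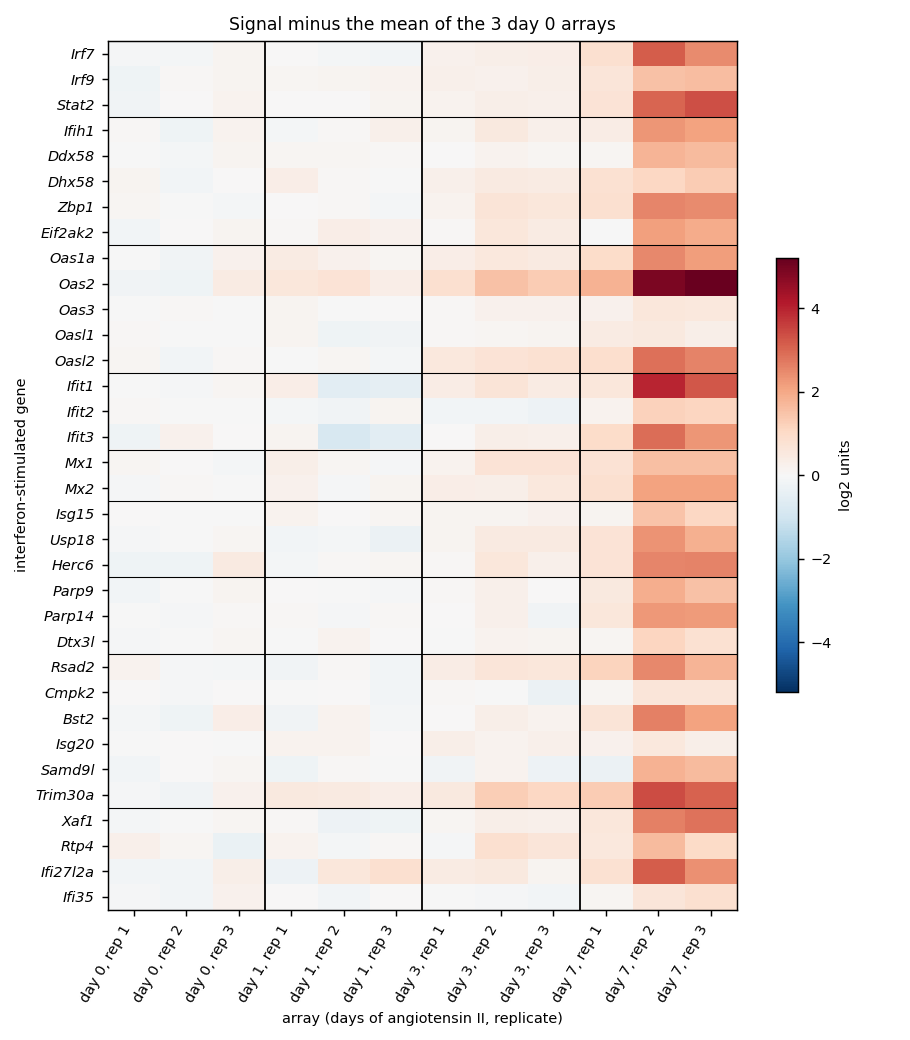
Log2 signal of the 34 measured interferon-stimulated genes (rows, divided by role) on the 12 arrays (columns), drawn as the difference from the mean of the 3 day 0 arrays of the same gene. Red is higher and blue is lower than day 0, and day 7 replicates 2 and 3 hold the strongest red in nearly every row.

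On the day 0 arrays all 7 smooth muscle, 7 endothelial and 5 fibroblast markers measured had signals above the negative controls, and the smooth muscle marker Acta2 stood at the scale's ceiling. Arrays of 1 group correlated at 0.969 to 0.993 over all genes tested, and their small number limits precision. The median of the array's positive control features minus that of its negative controls, a measure of signal over background, was 2.59 ± 0.05 in the day 0 group (SD, n = 3). It was 2.25 ± 0.29 after 1 day, 1.98 ± 0.14 after 3 days and 1.76 ± 0.49 after 7 days. The exact two-sided permutation test gave p = 0.1 for each treated day against day 0, the smallest that 3 against 3 arrays allow. Day 7 replicate 1, where the interferon-stimulated genes were lowest among the day 7 arrays, also had the lowest control difference of all 12 arrays, at 1.20, against 1.98 and 2.10 on replicates 2 and 3. The part of this in the results below was not tested, though a fit with the control difference as a covariate was run. The control differences of day 0 (2.56 to 2.64) lay above those of all treated arrays. For differences from day 0, that fit therefore cannot tell the control difference and the treatment apart. No day 0 array showed a signal above its negative control median for 15 of the 34 genes, so the sizes of their changes are approximate. The vessel is a mixture, so more cells of a type and more RNA per cell cannot be told apart.

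The promoters of the list were searched for the response element, since it is the sequence through which ISGF3 acts. These promoters (RefSeq, GRCm38.p6) were matched by symbol for 25 of the 35 members, and the 250 bases before each start were read in the direction of the gene. The element's core was taken as GAAA, any 2 bases, and GAAA again, on either strand, with overlapping matches counted. It was found for 9 of the 25 members (36.0%) and for 936 of all 27025 genes with a promoter in the table (3.46%). Those 9 were Bst2, Ifit1, Ifit3, Isg15, Oas1a, Oas3, Rsad2, Stat2 and Trim30a. The 5 with more than 1 match are printed below, 5′ to 3′, the match or joined matches in capitals, to show how close together and how close to the start they lie.
Isg15 (chr4:156200819-156201068, minus strand): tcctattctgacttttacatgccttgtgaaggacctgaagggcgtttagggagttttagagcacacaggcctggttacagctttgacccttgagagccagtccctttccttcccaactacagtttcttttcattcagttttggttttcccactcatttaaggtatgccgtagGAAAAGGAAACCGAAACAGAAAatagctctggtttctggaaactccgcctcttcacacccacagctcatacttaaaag
Ifit1 (chr19:34640639-34640888, plus strand): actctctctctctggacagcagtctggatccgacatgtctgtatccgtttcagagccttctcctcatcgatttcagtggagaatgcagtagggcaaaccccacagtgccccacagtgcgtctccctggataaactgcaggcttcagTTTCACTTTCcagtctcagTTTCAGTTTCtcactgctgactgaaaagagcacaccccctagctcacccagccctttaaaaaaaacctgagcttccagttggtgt
Ifit3 (chr19:34583279-34583528, plus strand): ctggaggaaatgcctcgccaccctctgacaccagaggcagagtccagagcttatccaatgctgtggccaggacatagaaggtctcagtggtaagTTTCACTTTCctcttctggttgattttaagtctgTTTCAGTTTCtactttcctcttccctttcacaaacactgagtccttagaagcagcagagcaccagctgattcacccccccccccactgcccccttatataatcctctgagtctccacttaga
Oas1a (chr5:120907526-120907775, minus strand): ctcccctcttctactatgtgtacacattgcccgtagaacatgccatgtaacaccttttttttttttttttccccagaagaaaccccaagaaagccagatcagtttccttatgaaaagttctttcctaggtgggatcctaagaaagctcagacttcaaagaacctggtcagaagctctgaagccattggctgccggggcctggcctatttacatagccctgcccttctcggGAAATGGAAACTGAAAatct
Bst2 (chr8:71537473-71537722, minus strand): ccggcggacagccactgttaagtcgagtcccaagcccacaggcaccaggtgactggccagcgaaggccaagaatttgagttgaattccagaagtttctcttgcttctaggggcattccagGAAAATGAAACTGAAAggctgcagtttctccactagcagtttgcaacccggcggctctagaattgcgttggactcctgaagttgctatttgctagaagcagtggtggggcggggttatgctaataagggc
Isg15 held 3 overlapping matches, the first starting 78 bases before the gene's start. Ifit1 held a pair starting 104 and 85 bases before the start, and Ifit3, a gene of the same family, held a pair with the same letters, TTTCACTTTC and TTTCAGTTTC, starting 156 and 122 bases before. In Oas1a the joined matches lay next to the start, from base -20 to base -5. Another motif, the gamma-activated site (TTC, any 3 bases and GAA), was searched in the same promoters. It was found for 5 of the 25 members (20.0%) and for 8.13% of all genes. A match is a string of letters and not evidence of binding.

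The 3 signalling factors of the list all rose at day 7. Stat2, a subunit of ISGF3, had log2 signals of 7.04, 7.24 and 7.40 in untreated mice, 7.26, 7.24 and 7.37 on day 1, 7.41, 7.53 and 7.49 on day 3 and 7.92, 10.26 and 10.59 on day 7. It was about level through day 3, stood a little higher on day 7 replicate 1 and far higher on the other day 7 arrays, with a day 7 difference of 2.36 ± 0.55 (adjusted p = 0.0167 in limma). Irf9, the DNA-binding subunit, had 5.93, 6.22 and 6.31 in untreated mice, 6.24, 6.31 and 6.34 on day 1, 6.41, 6.37 and 6.44 on day 3 and 6.79, 7.66 and 7.75 on day 7. Its day 7 arrays did not overlap with any earlier array, and it rose by 1.25 ± 0.22 (adjusted p = 0.00534 in limma). Irf7, the factor that drives interferon alpha genes, had 5.74, 5.67 and 5.94 in untreated mice, 5.80, 5.69 and 5.65 on day 1, 5.99, 6.07 and 6.13 on day 3 and 6.61, 8.95 and 8.24 on day 7. All 3 day 7 arrays lay above all 9 earlier ones, and the difference was 2.15 ± 0.46.

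Of the 5 sensors of viral nucleic acid, 4 rose at day 7. Zbp1, a sensor of Z-form nucleic acid that can start cell death, had signals of 5.84, 5.74 and 5.65 in untreated mice, 5.76, 5.80 and 5.63 on day 1, 5.94, 6.40 and 6.34 on day 3 and 6.56, 8.30 and 8.22 on day 7. Ifih1 encodes MDA5, a sensor of long double-stranded RNA, and had 6.86, 6.56 and 6.96 in untreated mice, 6.71, 6.85 and 7.04 on day 1, 6.95, 7.31 and 7.06 on day 3 and 7.19, 9.07 and 8.90 on day 7. Ddx58 encodes RIG-I, a sensor of short RNA with a free triphosphate end, and had 7.19, 7.11 and 7.35 in untreated mice, 7.31, 7.31 and 7.27 on day 1, 7.22, 7.41 and 7.30 on day 3 and 7.32, 8.98 and 8.86 on day 7. Zbp1 and Ifih1 rose by 1.95 ± 0.39 and 1.59 ± 0.41, whereas Ddx58, whose replicate 1 at day 7 lay within the day 0 range, rose by 1.17 ± 0.36. Dhx58, the related helicase LGP2, had 5.67, 5.39 and 5.57 in untreated mice, 5.9, 5.60 and 5.53 on day 1, 5.82, 6.03 and 5.99 on day 3 and 6.33, 6.60 and 6.88 on day 7. Its 3 day 7 arrays lay closer together than those of the other sensors, and its rise of 1.06 ± 0.15 had the lowest adjusted p of the 32 genes (0.00239 in limma). Eif2ak2, the kinase PKR that stops translation when it binds double-stranded RNA, had 7.41, 7.55 and 7.68 in untreated mice, 7.59, 7.89 and 7.76 on day 1, 7.59, 8.12 and 7.97 on day 3 and 7.52, 9.69 and 9.47 on day 7. It did not pass (1.35 ± 0.47, adjusted p = 0.0591 in limma), with replicate 1 of day 7 inside the day 0 range and the other replicates far above it.

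The oligoadenylate synthetases make a short signal RNA that turns on RNase L. Oas2 had the widest range of all members, with 6.22, 6.21 and 6.83 in untreated mice, 7.00, 7.15 and 6.75 on day 1, 7.27, 7.93 and 7.73 on day 3 and 8.24, 11.30 and 11.55 on day 7. No treated array except day 1 replicate 3 fell within the day 0 range, and the fold change from the day 0 mean was 3.54 on day 7 replicate 1, 29.4 on replicate 2 and 35.1 on replicate 3. Oas1a, its smaller relative, had 5.60, 5.43 and 5.82 in untreated mice, 6.06, 5.84 and 5.72 on day 1, 5.95, 6.17 and 6.07 on day 3 and 6.57, 8.11 and 7.79 on day 7 and rose by 1.87 ± 0.33 at day 7. Oasl2, a synthetase-like protein with ubiquitin-like domains, had 5.68, 5.45 and 5.63 in untreated mice, 5.56, 5.70 and 5.48 on day 1, 6.15, 6.29 and 6.36 on day 3 and 6.47, 8.47 and 8.15 on day 7. It was above all day 0 arrays from day 3 on and rose by 2.11 ± 0.41 at day 7. The closely related genes of this family lie side by side among the protein-coding genes of RefSeq (Oas2 next to Oas3, Oasl2 next to Oasl1), and shared probe sequence, here or with near copies such as those of Ifit3 and Trim30a, was not examined. Oas3, the largest synthetase, was not tested and had 4.19, 4.27 and 4.20 in untreated mice, 4.38, 4.18 and 4.25 on day 1, 4.28, 4.45 and 4.45 on day 3 and 4.46, 4.80 and 4.76 on day 7. Oasl1, a negative regulator of Irf7 translation, was not tested either and had 4.90, 4.80 and 4.81 in untreated mice, 4.99, 4.61 and 4.66 on day 1, 4.90, 4.92 and 4.96 on day 3 and 5.26, 5.36 and 5.14 on day 7. Neither exceeded the negative control median on any of the 12 arrays.

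IFIT proteins bind foreign RNA and keep it from being translated. All 3 rose at day 7, and 2 of them had their lowest signals at day 1. Ifit1 had 5.81, 5.77 and 5.97 in untreated mice, 6.18, 5.31 and 5.39 on day 1, 6.22, 6.52 and 6.29 on day 3 and 6.44, 9.81 and 9.08 on day 7, a rise of 2.59 ± 0.69 at day 7 (adjusted p = 0.0272 in limma). Ifit3 had 6.99, 7.41 and 7.21 in untreated mice, 7.36, 6.36 and 6.64 on day 1, 7.22, 7.52 and 7.48 on day 3 and 8.17, 10.11 and 9.48 on day 7, a rise of 2.05 ± 0.43. Day 1 replicates 2 and 3 were below every day 0 array for both genes and day 1 replicate 1 was not, and neither gene passed the test at day 1 (-0.22 ± 0.69 and -0.42 ± 0.43). Ifit2 had 6.76, 6.69 and 6.68 in untreated mice, 6.61, 6.54 and 6.86 on day 1, 6.57, 6.56 and 6.45 on day 3 and 6.91, 7.92 and 7.83 on day 7, and it rose by 0.85 ± 0.23. It was the member whose 3 day 3 arrays all lay below the day 0 arrays.

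Both Mx genes, dynamin-like GTPases that trap viral particles, rose at day 7. Mx2 had 5.37, 5.47 and 5.41 in untreated mice, 5.65, 5.37 and 5.54 on day 1, 5.78, 5.72 and 5.98 on day 3 and 6.23, 7.50 and 7.50 on day 7, with a rise of 1.66 ± 0.29. Mx1 had 4.91, 4.82 and 4.69 in untreated mice, 5.11, 4.89 and 4.73 on day 1, 4.97, 5.52 and 5.53 on day 3 and 5.56, 6.39 and 6.36 on day 7, with a rise of 1.29 ± 0.23. Mx1 is known to be defective in C57BL/6 mice. Both genes were below the negative controls at day 0. As Mx1 entered the test only through its high day 7 arrays, its call is not independent of the filter. Of the 31 members that reached the filter without the day 7 arrays, 28 rose in the same fit, as did 11.6% of all genes that reached it so.

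ISG15 is a ubiquitin-like protein that is joined to other proteins during the response. Isg15 had 5.59, 5.55 and 5.56 in untreated mice, 5.73, 5.57 and 5.65 on day 1, 5.70, 5.70 and 5.80 on day 3 and 5.70, 7.05 and 6.66 on day 7. It was nearly flat on the first 10 arrays, with day 7 replicate 1 at the level of day 3, and rose by 0.90 ± 0.27 at day 7 (adjusted p = 0.0382 in limma). Herc6, the mouse ligase that attaches ISG15, had 7.14, 7.14 and 7.83 in untreated mice, 7.26, 7.45 and 7.49 on day 1, 7.44, 7.96 and 7.62 on day 3 and 8.09, 9.92 and 9.94 on day 7, a rise of 1.95 ± 0.44. Usp18, the protease that removes ISG15 and also damps the interferon receptor, had 5.10, 5.14 and 5.25 in untreated mice, 5.02, 5.06 and 4.86 on day 1, 5.32, 5.62 and 5.62 on day 3 and 5.88, 7.49 and 7.03 on day 7, a rise of 1.64 ± 0.32. Its 3 day 1 arrays lay just below the day 0 arrays and its 3 day 3 arrays just above.

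Parp9, Dtx3l and Parp14 are neighbours among the protein-coding genes of RefSeq, and PARP9 and DTX3L work as a pair that adds ADP-ribose and ubiquitin to proteins. Parp14, a mono-ADP-ribosyltransferase, had 7.60, 7.58 and 7.69 in untreated mice, 7.68, 7.58 and 7.68 on day 1, 7.63, 7.90 and 7.46 on day 3 and 8.20, 9.87 and 9.84 on day 7, a rise of 1.68 ± 0.37 at day 7. Parp9 had 6.54, 6.65 and 6.83 in untreated mice, 6.71, 6.65 and 6.60 on day 1, 6.74, 6.93 and 6.68 on day 3 and 7.17, 8.58 and 8.20 on day 7, a rise of 1.31 ± 0.29. Dtx3l had 6.37, 6.41 and 6.56 in untreated mice, 6.44, 6.62 and 6.45 on day 1, 6.42, 6.62 and 6.57 on day 3 and 6.53, 7.57 and 7.25 on day 7, a rise of 0.67 ± 0.22 (adjusted p = 0.0479 in limma). None of the 3 differed from day 0 by more than 0.11 at day 1 or day 3, and day 7 replicate 1 of Dtx3l lay within the day 0 range.

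Of the 6 restriction factors and related genes, 5 rose at day 7. Trim30a had 6.58, 6.44 and 6.87 in untreated mice, 7.12, 7.08 and 6.96 on day 1, 7.14, 7.89 and 7.69 on day 3 and 7.96, 10.03 and 9.68 on day 7. All 9 treated arrays lay above all 3 day 0 arrays, which at day 1 held for no other of the 32 genes. Rsad2 encodes viperin, which makes a chain-terminating nucleotide, and had 5.69, 5.42 and 5.38 in untreated mice, 5.33, 5.57 and 5.36 on day 1, 5.88, 6.13 and 6.09 on day 3 and 6.65, 8.01 and 7.28 on day 7, a rise of 1.81 ± 0.28. Its genomic neighbour Cmpk2, a mitochondrial nucleotide kinase that supplies viperin's substrate, had 5.29, 5.19 and 5.27 in untreated mice, 5.22, 5.27 and 5.11 on day 1, 5.31, 5.21 and 4.95 on day 3 and 5.36, 5.87 and 5.86 on day 7. It was called at day 7 (0.45 ± 0.14, adjusted p = 0.0479 in limma), but its signal was under the negative control median on all 12 arrays, so the size is approximate. Bst2 encodes tetherin, which holds budding virus at the cell surface, and had 6.86, 6.75 and 7.33 in untreated mice, 6.78, 7.17 and 6.86 on day 1, 7.02, 7.30 and 7.17 on day 3 and 7.64, 9.62 and 9.06 on day 7, a rise of 1.79 ± 0.41. Isg20, an exonuclease, had 6.80, 6.85 and 6.80 in untreated mice, 6.99, 7.00 and 6.83 on day 1, 7.14, 7.00 and 7.07 on day 3 and 7.02, 7.36 and 7.11 on day 7. Its rise of 0.35 ± 0.09 was the smallest of the 29. Samd9l, an inhibitor of translation and growth, had 7.72, 7.88 and 7.93 in untreated mice, 7.63, 7.92 and 7.83 on day 1, 7.65, 8.03 and 7.59 on day 3 and 7.55, 9.67 and 9.49 on day 7. It did not pass (1.06 ± 0.46, adjusted p = 0.106 in limma), as day 7 replicate 1 was its lowest array and replicates 2 and 3 were its highest.

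Among the remaining 4 genes measured, 3 rose at day 7. Xaf1, a pro-apoptotic factor, had 7.05, 7.12 and 7.25 in untreated mice, 7.19, 6.87 and 6.90 on day 1, 7.26, 7.45 and 7.42 on day 3 and 7.71, 9.75 and 9.98 on day 7, a rise of 2.01 ± 0.48. Ifi27l2a, a small hydrophobic membrane protein, had 8.10, 8.08 and 8.53 in untreated mice, 7.97, 8.81 and 9.05 on day 1, 8.65, 8.73 and 8.36 on day 3 and 9.02, 11.39 and 10.62 on day 7, a rise of 2.10 ± 0.52. Rtp4, a chaperone for receptors, had 5.79, 5.62 and 5.19 in untreated mice, 5.73, 5.45 and 5.58 on day 1, 5.49, 6.38 and 6.16 on day 3 and 6.10, 7.19 and 6.52 on day 7, a rise of 1.06 ± 0.30. Ifi35, a binding partner of NMI, had 6.60, 6.51 and 6.86 in untreated mice, 6.67, 6.51 and 6.67 on day 1, 6.64, 6.59 and 6.52 on day 3 and 6.74, 7.27 and 7.48 on day 7 and did not pass (0.51 ± 0.17, adjusted p = 0.0531 in limma).

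**Figure D2:**
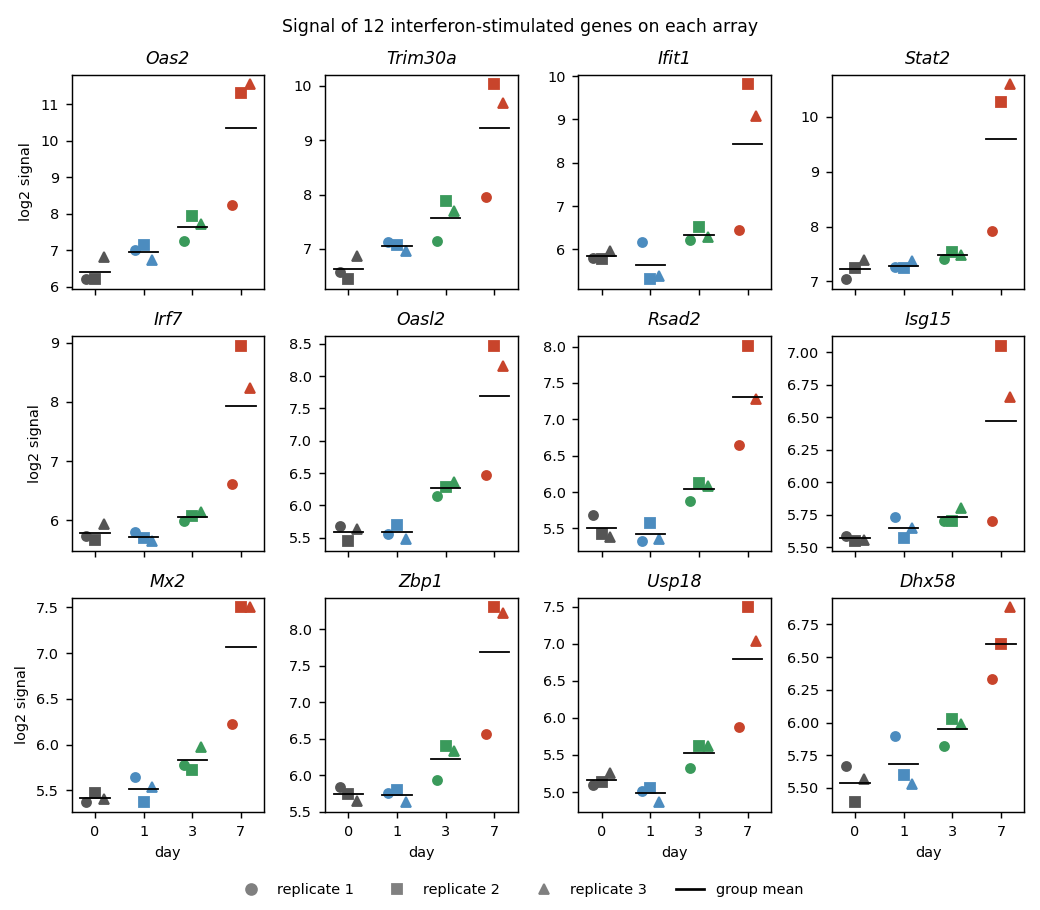
Log2 signal (vertical axis) of 12 interferon-stimulated genes on each array by day of angiotensin II (horizontal axis), with symbols for the replicate number and a line at each group mean. For each of the 12 genes, day 7 replicate 1 lies below replicates 2 and 3, which for Oas2 stand at 11.30 and 11.55.

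At day 1 the differences of the list from day 0 ran from -0.42 (Ifit3) to 0.55 (Oas2), with a median of 0.04 against 0.01 over all genes. In limma 0 of the 32 passed, and 0 had an unadjusted p under 0.05, where 16.4% of all genes did. With the control difference as a covariate the median was 0.42 against -0.03 over all genes, and 0 passed, where 4.55% of all genes were called. In that fit 4 had an unadjusted p under 0.05, and the share of all genes with such a p was not counted. Trim30a was the member above day 0 without overlap, and Usp18 the member below, where 11.8% and 11.5% of all genes had such an order. Macrophage markers, in contrast, averaged 8.87 to 9.41 over 12 genes at day 1 and 7.36 to 7.75 at day 0, without overlap.

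At day 3 the differences ran from -0.19 (Ifit2) to 1.23 (Oas2), with a median of 0.29 against 0.08 over all genes. The 3 day 3 arrays lay above the 3 day 0 arrays for 17 of the 32 genes, where 23.3% of all genes had that order. In limma over 12 arrays 0 of the 32 passed, and 3 had an unadjusted p under 0.05, as did 28.2% of all genes. That fit takes 1 spread per gene from all groups, and the median SD of the 32 genes was 0.13 to 0.14 on days 0, 1 and 3 and 0.94 on day 7 (n = 3 arrays each). With the 3 day 7 arrays left out, an alternative chosen after seeing the data, 6 passed at day 3: Oas2 (1.23 ± 0.23), Trim30a (0.94 ± 0.20), Oasl2 (0.68 ± 0.09), Rsad2 (0.54 ± 0.12), Zbp1 (0.48 ± 0.13) and Mx2 (0.41 ± 0.10), with adjusted p of 0.00716 to 0.0453. In that fit 15.4% of all genes were called in either direction. The 6 arrays of days 0 and 3 alone gave 8 (20.5% of all genes). Leaving out day 7 replicate 1 gave 5 (15.8%). These counts of the list lie near those shares, but all of these members rose. The shares take rises and falls together, and the share that rose was not counted in these fits. With the control difference as a covariate 0 passed, where 2.1% of all genes were called, with a median of 0.98 against -0.01 over all genes. In that fit 27 of the 32 had an unadjusted p under 0.05, and the share of all genes with such a p was not counted.

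**Figure D3:**
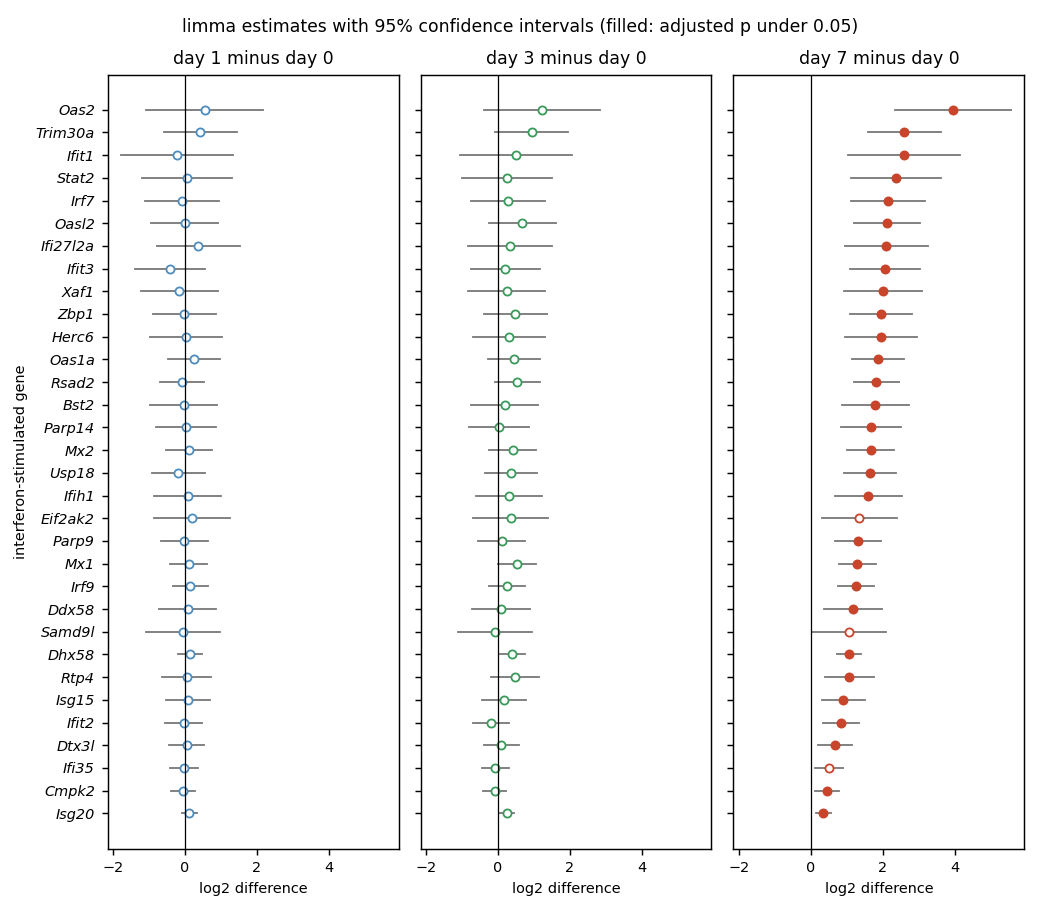
Difference from day 0 on the log2 scale (horizontal axis) of the 32 tested genes (vertical axis, ordered by day 7) at days 1, 3 and 7, as limma estimates from 12 arrays with 95% confidence intervals. Filled points have an adjusted p under 0.05: 29 at day 7 and 0 at days 1 and 3.

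At day 7 the test against day 0 called 29 genes, and an F test over the 4 days called 20 of the 32 (14.6% of all genes). The 3 genes that did not pass, Eif2ak2, Samd9l and Ifi35, were not below day 0 on average: their 95% intervals of the difference were 0.30 to 2.40, 0.03 to 2.09 and 0.13 to 0.89. In 27 of the 32 the 3 day 7 arrays lay above all day 0 arrays, where 26.6% of all genes had that order, and the other 5 (Ddx58, Dtx3l, Eif2ak2, Samd9l and Ifi35) overlapped through replicate 1. The count of 29, beside 25.2% of all genes called in either direction, fell to 15, 16 and 18 without day 0 replicate 1, day 0 replicate 2 and day 7 replicate 2, where 12.9%, 13.4% and 15.9% of all genes were called. It was 7 with the 6 arrays compared alone (12.3% of all genes). Without day 7 replicate 1 it was 32 (15.3%), and with the control difference as a covariate it was again 29, of which 26 were the same genes, with a median difference of 2.58 and 3.49% of all genes called.

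The 3 day 7 arrays were therefore set side by side. Day 7 replicate 2 was above all 9 arrays of days 0, 1 and 3 for 32 of the 32 genes, replicate 3 for 31 and replicate 1 for 21. Over all genes tested these shares were 22.5%, 10.3% and 30.6%, so replicate 1 exceeded the earlier arrays in more genes of the whole table than either other replicate. A difference of at least 1 log2 unit from the day 0 mean was reached by 29, 27 and 3 of the 32 genes on replicates 2, 3 and 1, and by 10.3%, 3.97% and 11.9% of all genes. The 3 genes on replicate 1 were Oas2, Trim30a and Rsad2. Replicate 1 still lay above all 3 day 0 arrays for 27 of the 32 genes, where 49.4% of all genes did. The mean of the 34 measured genes was 6.24 to 6.39 in untreated mice, 6.31 to 6.38 after 1 day, 6.47 to 6.71 after 3 days, and 6.88, 8.41 and 8.19 on the day 7 replicates. For each of the 32 genes the SD was highest at day 7, as it was for 10251 of the 22066 genes tested.

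**Figure D4:**
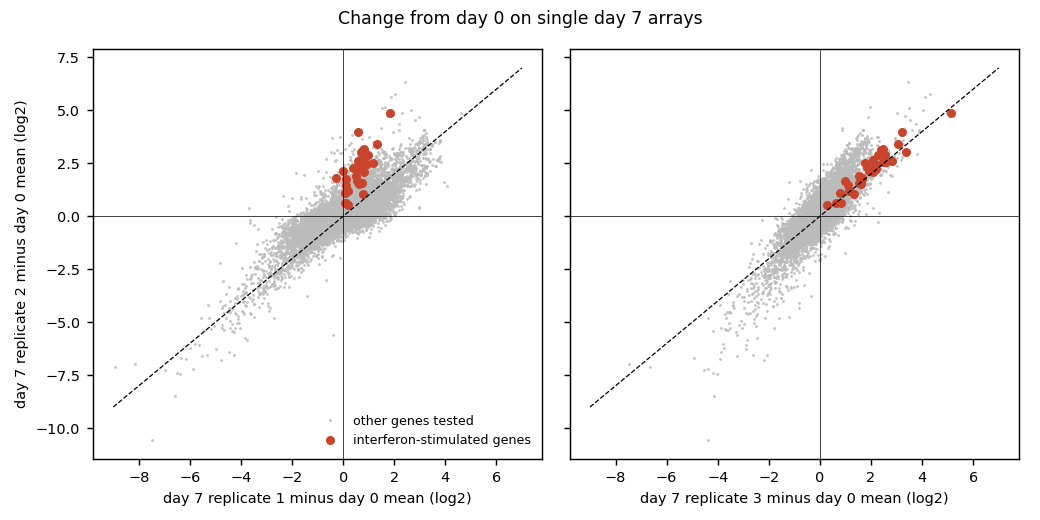
Log2 difference from the day 0 mean of every tested gene (grey) and of the 32 interferon-stimulated genes (red): day 7 replicate 2 (vertical axis) against replicate 1 (left) and against replicate 3 (right), with a dashed line of equal change. On the left all red points lie above the line, and on the right they lie closer to it, on both sides.

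Between treated days, no day 0 array enters the difference. From day 3 to day 7 the 32 genes had a median difference of 1.28 against 0.02 over all genes, and the 3 day 7 arrays were above the 3 day 3 arrays for 23 of them, where 7.04% of all genes had that order. In limma 0 of the 32 passed, where 0.113% of all genes rose and 0.154% fell. An unadjusted p under 0.05 was found for 29 of the 32 and for 12.9% of all genes. Leaving out day 7 replicate 1 turned the 0 into 30, where 1.23% of all genes were called in either direction. The control-difference covariate gave 23 (1.71%). From day 1 to day 7, 19 of the 32 rose, where 1.88% of all genes rose and 2.91% fell. The day 7 arrays were above the day 1 arrays for 27 of the 32, where 14.1% of all genes were. The largest of these rises were those of Oas2 (3.40 ± 0.72), Ifit3 (2.47 ± 0.43) and Stat2 (2.30 ± 0.55). The count of 19 stood beside 4.79% of all genes called in either direction. It was 0 and 1 without day 1 replicates 2 and 3 (0.195% and 0.816% of all genes). Without day 0 replicates 1, 2 and 3 it was 6, 6 and 5 (1.8%, 2.12% and 1.77%). Without day 3 replicates 2 and 3 it was 6 and 8 (1.89% and 2.29%). Without day 7 replicates 1 and 2 it was 30 and 4 (2.54% and 2.03%). From day 1 to day 3 the median difference was 0.23 against 0.02 over all genes, and 0 of the 32 and 0 of all genes passed in limma. There 0 of the 32 had an unadjusted p under 0.05, as did 8.05% of all genes. The 3 day 3 arrays lay above the 3 day 1 arrays for 13 of the 32, where 7.04% of all genes had that order. The comparisons with day 0 share the day 0 arrays, and those with day 7 share the day 7 arrays.

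Genes upstream of the list did not show one direction. Of 13 interferon ligand genes measured, 9 were tested and 0 passed at day 7 in limma, where 25.2% of all genes were called in either direction. An unadjusted p under 0.05 was found for 3 of the 9 and for 43.4% of all genes. Most of these ligands were dim, so a change in them could be missed. Ifna11 and Ifnl3 were under the negative control median on all 12 arrays, Ifna4 and Ifnl2 on 11, Ifna2 on 9 and Ifna1 on 8. Ifnb1, interferon beta, had 5.29, 5.15 and 5.01 in untreated mice, 4.65, 4.81 and 5.43 on day 1, 5.52, 5.22 and 5.22 on day 3 and 5.45, 5.77 and 5.42 on day 7, a difference of 0.40 ± 0.20 at day 7, and all 12 arrays were under 6. Between days 1 and 7 the test called Ifna12, an interferon alpha gene, higher, but its signal, like that of Ifnb1, was under the negative control median on all 12 arrays, so no size is given. Of 8 tested receptor and kinase genes, 0 rose and 1 fell at day 7, where 12.1% of all genes rose and 13.2% fell. Ifngr2, a chain of the interferon gamma receptor, was the gene that fell, by -0.85 ± 0.20. The receptor genes Ifnar1 (-0.09 ± 0.16) and Ifnar2 (0.18 ± 0.15) did not pass. Among 6 transcription factors tested, Irf8 and Irf5, both factors of myeloid cells, passed as higher at day 7, though neither exceeded the negative control median on any of the 12 arrays, and Irf1 did not pass (0.44 ± 0.22).

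Of 12 receptors and adaptors that sense nucleic acid or relay the signal, 7 rose at day 7 and 4 at day 3. Over all genes tested, 12.1% rose at day 7 and 4.61% at day 3. Trim25, the ubiquitin ligase that activates RIG-I and is itself induced by interferon, had 6.94, 6.79 and 6.96 in untreated mice, 7.14, 7.25 and 7.09 on day 1, 7.32, 7.65 and 7.55 on day 3 and 7.73, 8.54 and 8.61 on day 7. It rose by 1.40 ± 0.21 at day 7, with all 3 day 7 arrays above all earlier ones. Tlr8 (1.35 ± 0.14), Tlr7 (1.21 ± 0.24) and Tlr9 (0.80 ± 0.12), endosomal receptors for RNA and DNA, rose at day 7 as well, with Tlr9 under the negative control median on 11 of the 12 arrays. Tlr8 had already risen at day 1 (0.62 ± 0.14) and day 3 (1.17 ± 0.14), and Tlr7 at day 3 (1.10 ± 0.24). None of the 32 interferon-stimulated genes had passed by then in the same fit, into which their wide day 7 spread also enters. Oas2 differed by 1.23 ± 0.72 at day 3, so the calls do not give the order of the rises. Of 9 negative regulators and nucleic acid processing genes tested, 4 rose and 2 fell at day 7, where 12.1% of all genes rose and 13.2% fell. Samhd1, which breaks down the nucleotides that viruses need, had 8.80, 8.76 and 9.47 in untreated mice, 9.42, 9.55 and 9.66 on day 1, 9.45, 9.76 and 9.69 on day 3 and 9.62, 11.32 and 11.66 on day 7, a rise of 1.86 ± 0.44. The phosphatase gene Ptpn6 rose by 0.72 ± 0.10, while the phosphatase gene Ptpn11 (-1.57 ± 0.24) and Pias1 (-1.48 ± 0.25), a SUMO ligase that damps interferon signalling, fell.

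Markers of other cells moved differently from the list among the day 7 arrays in some cases and alike in others. The 12 macrophage and monocyte markers averaged 8.61, 9.97 and 9.22 on day 7 replicates 1, 2 and 3, so that replicate 1 was again lowest. Their mean was already above day 0 at day 1, and 10 of the 12 rose at day 7. Ly6c2 was the marker whose day 1 arrays overlapped with day 0. It had 11.39, 10.29 and 11.43 at day 0, 10.93, 12.31 and 11.52 on day 1 and 11.39, 14.86 and 12.69 on day 7. The 6 plasmacytoid dendritic cell markers averaged 5.82, 5.52 and 5.53, highest on replicate 1, with 3 of the 5 tested called higher at day 7, and 5 of the 6 never exceeded the negative controls at day 0. Neutrophil markers (8 genes) averaged 5.91, 5.53 and 5.43, and 6 of the 8 never exceeded the negative controls at day 0. T and NK cell markers (7 genes) averaged 5.5, 5.20 and 5.17, none exceeding the negative controls on any of the 12 arrays. The 5 fibroblast markers averaged 15.81, 16.64 and 16.35, lowest on replicate 1 and highest on replicate 2 as the mean of the interferon-stimulated genes was, against 13.74 to 14.81 at day 0, and 3 rose. Endothelial markers (7 genes) averaged 8.26, 8.97 and 8.93, also lowest on replicate 1, and 1 fell. Smooth muscle markers averaged 10.90, 9.51 and 12.41 on the day 7 arrays, and 6 of the 7 fell. Skeletal and cardiac muscle markers (7 genes) averaged 6.30, 6.60 and 6.57, against 5.41 to 5.58 at day 0, and 5 rose. Of these 7, 6 never exceeded the negative controls at day 0. Adipocyte markers (7 genes) averaged 9.98, 9.35 and 9.82, against 10.16 to 10.60 at day 0, and 1 rose. The part of these cells in the changes of the interferon-stimulated genes was not tested.

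**Figure D5:**
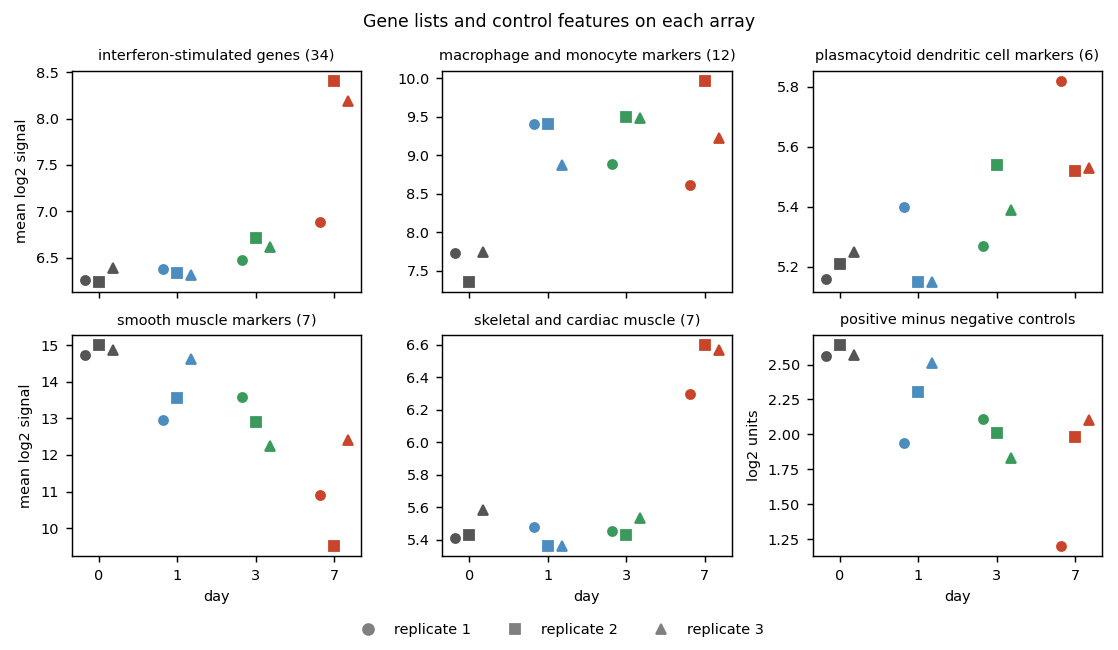
Mean log2 signal of 5 gene lists, and the positive minus negative control difference in log2 units, on each array (vertical axes) by day (horizontal axis), with symbols for the replicate number. Day 7 replicate 1 is below replicates 2 and 3 for the interferon-stimulated genes, the macrophage markers and the control difference, and above them for the plasmacytoid dendritic cell markers.

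Outside the list, the 6 named genes whose signals over the 12 arrays correlated most with the mean of the 32 were Rnf213 (Pearson r = 0.994), Trim30d (0.992), Ifi208 (0.986), Sp100 (0.986), Slfn8 (0.984) and Tap1 (0.983). These are descriptions over 12 arrays that share labelling and scale, and they rest largely on the day 7 arrays: without these, r was 0.907, 0.912, 0.870, 0.859, 0.949 and 0.570. Rnf213, a large ubiquitin ligase linked to vascular disease, had 8.23, 8.20 and 8.78 in untreated mice, 8.32, 8.44 and 8.24 on day 1, 8.46, 9.13 and 8.85 on day 3 and 9.12, 12.49 and 12.31 on day 7. It rose by 2.90 ± 0.73 at day 7, with the same order of the day 7 arrays as Bst2 and Zbp1, highest on replicate 2. Trim30d is a close relative of Trim30a, and their probes may share signal. Among the 32 themselves, r with the mean of the other members was 0.766 for Isg20, 0.853 for Rtp4 and 0.897 for Cmpk2, and 0.907 to 0.992 for the other 29.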

How the data were processed

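RNA of 12 vessel samples was measured on Affymetrix arrays. The series' design text names an earlier probe set array, whereas the features of the file are transcript clusters of another design. The values the authors deposited are log2 signals, 1 per transcript cluster. The submitters' processing notes name Affymetrix Expression Console, and its version, background correction and normalization are not stated in what was used here. Values were used as deposited. Of 65956 transcript clusters, 31258 had 1 gene symbol after older symbols were updated through RefSeq, 1492 had several and were left out, and 33206 had none. The cluster with the highest mean over 12 arrays stood for each gene, and genes were kept when at least 3 arrays reached the 40th percentile of all clusters (5.25). The test was that of limma 3.58.1 (R 4.3.3), fitted to all 12 arrays with 1 mean for each day and empirical Bayes variances without a trend, and Benjamini-Hochberg adjustment covered 22066 genes, with a call at adjusted p under 0.05. Simulated data served as a check of the method, but the outcome is not given here. How the method behaves under the wider day 7 spread of the list is not shown, so the day 7 calls draw no support from that check. P-values measure the spread between these samples. No member reached the scale's ceiling. Alternatives were other scalings, filters and fits, and each array left out.

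The members, lists and rules were chosen with earlier results of these data known. Members called in any comparison, and up to 8 more with the widest range, were given per array. Of the other pathway genes, the called ones with the largest change, up to 4 per list, and 4 genes fixed by name were given. The promoters printed are those with more than 1 match, a choice made after the matches were seen.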

Additional observations from a re-analysis of the deposited data

How the results depend on the processing

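As deposited, the 32 genes had a median day 7 difference of 1.65 and all genes tested one of 0.09. Quantile normalization gave 1.45 and -0.11, and arrays centred on their medians 1.37 and -0.19, a shift of the whole table of over 0.1. None of the 48 calls of single genes turned its direction under any alternative run for them. The counts of genes called at day 7 against day 0 were 24 and 22 under these scalings. Of all genes, 24.9% and 28.2% were called there in either direction, beside 25.2% as deposited. With centred arrays the F test called 12 (15.7% of all genes). Array weights gave 7 genes at day 3 against day 0 (29.8% of all genes) and 27 from day 3 to day 7 (1.47%). They gave 31 from day 1 to day 7 (19.3%) and 32 in the F test (40.4%). The 7 are a lower share than that of all genes called in either direction. All 7 rose, however, and the share of all genes that rose was not counted in that fit. The control-difference covariate gave 23 from day 3 to day 7 (1.71%). With the 6 arrays compared alone, 8 passed at day 3 against day 0 (20.5% of all genes) and 7 at day 7 against day 0 (12.3%). From day 1 to day 7, 0 passed (0.00906% of all genes). There 26 had an unadjusted p under 0.05, and the share of all genes with such a p was not counted. Without the day 7 arrays, chosen after seeing the data, 6 passed at day 3 (15.4% of all genes).

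Leaving out each array gave 0 to 5 genes at day 3 against day 0 and 15 to 32 at day 7 against day 0. The shares of all genes called ran from 3.18% to 15.8% and from 12.9% to 33.9%. From day 3 to day 7 it gave 0 to 30 (0.0453% to 1.23%), from day 1 to day 7 0 to 30 (0.195% to 17.1%). The F test called 4 to 30 (4.57% to 19.5%). In each run 0 passed at day 1 against day 0 (0.458% to 5.01%) and from day 1 to day 3 (0 to 0.00453%). Control differences against day 0 then ran from -0.47 to -0.18 at day 1, -0.67 to -0.53 at day 3 and -1 to -0.55 at day 7. In the fits that leave out an array a group of 2 shares the spread of the others. The replicate number as a block gave 29 genes at day 7 against day 0, 28 of them the same, and changed no other count of the list by over 1.5 times. The labels do not say that a number is shared: deviations of same-numbered arrays had a median correlation of 0.038, over 0.1 in 7 of 18 pairs, and 7 of 12 arrays correlated best with their own number. Signal over background limits the dim members, 15 of 34 at day 0.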
